A study of Mus musculus with 32 samples.

Results

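The 10 genes described here carry out or control the breakdown of the branched-chain amino acids leucine, isoleucine and valine. They were chosen by name from a pathway list (Bcat1, Bcat2, Bckdha, Bckdhb, Dbt, Bckdk, Ivd, Acadsb, Pcca and Pccb). All 10 were found among the 20560 genes of the deposited table, and all 10 passed the filter on low values in every comparison.

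Branched-chain amino acids first lose their amino group to a transaminase, encoded by Bcat1 in the cytosol and Bcat2 in the mitochondrion. The resulting keto acids are then decarboxylated by a mitochondrial complex whose catalytic core subunits are encoded by Bckdha, Bckdhb and Dbt, a step switched off when the kinase Bckdk phosphorylates the complex. Later enzymes split by amino acid (Ivd for leucine, Acadsb for isoleucine), and propionyl-CoA from isoleucine and valine is carboxylated by an enzyme built from Pcca and Pccb. Fat cells are known for using these amino acids as a carbon source for lipid.

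RNA was sequenced from 3T3-L1 cells, a mouse preadipocyte line, in 32 libraries. Cells carried a scramble control hairpin (shCtrl, genotype given as WT) or 1 of 2 short hairpin RNAs against Zbtb9, which encodes a BTB protein with zinc fingers. Each of days 0, 3, 7 and 11 had 4 shCtrl libraries, 2 shRNA 1 libraries and 2 shRNA 2 libraries, titled as biological replicates. All arms received dexamethasone (1 µM), isobutylmethylxanthine (0.5 mM) and insulin (167 nM) at day 0, insulin alone from day 3 and plain medium from day 7. The labels do not say how the hairpins were delivered or whether an arm was a clone or a pool. The p-values measure the spread between these libraries.

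Libraries held 22280363 to 31073726 reads counted in genes. Levels below are normalized reads, meaning reads rebuilt from the deposited log2 values and scaled by each library's size factor; differences are log2 differences of the deposited values. Those values are shrunken for genes with few reads, so a fold understates the change of low genes. A gene is called at a limma adjusted p under 0.05. Zbtb9 itself was covered by few reads. Knockdown libraries averaged 8.76 ± 2.83 normalized reads against 14.2 ± 0.594 in control at day 0 (SD, n = 4 each; two-sided exact permutation p = 0.0286, the smallest that 4 against 4 allows), and 7.16 ± 2.03 against 16.8 ± 4.15 at day 7 (exact permutation p = 0.0286; limma log2 -0.35, adjusted p = 0.0288). In limma it was not called at day 0 (adjusted p = 0.271) or day 11 (adjusted p = 0.173) and fell under the filter at day 3. Taken by hairpin in limma, Zbtb9 was not called at day 0 (adjusted p = 0.205 with shRNA 1 and 0.543 with shRNA 2). Neither hairpin alone gave a call at day 7 (shRNA 1 -0.32, adjusted p = 0.107, and shRNA 2 -0.37, adjusted p = 0.0714). At day 11 it was called lower with shRNA 2 (log2 -0.49, adjusted p = 0.0228) and not with shRNA 1 (-0.08, adjusted p = 0.734). The groups overlapped at day 3 (exact permutation p = 0.114) and at day 11 (exact permutation p = 0.143). The library labelled shRNA 1 day 11 replicate 2 had 19.3 normalized Zbtb9 reads, within the range of the 4 control libraries of that day (lowest 12.1), so the 10 genes' log2 differences of knockdown from control at day 11 are also given without it. The day 11 ratios, medians and values of other genes include it. Annotated exons of Zbtb9 overlap those of a Ggnbp1 gene model on the same strand over 84.4% of their bases, and reads there may not have been counted for Zbtb9.

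Fat cell markers moved with the arms. The summed normalized reads of 8 fat cell markers (all 8 in the table) ran from 18429 to 18953 in control libraries at day 0 and from 42740 to 46606 at day 7. In knockdown libraries they ran from 20651 to 22207 at day 0, already above control, from 36012 to 48406 at day 3 (control 21112 to 26113), from 116710 to 186429 at day 7 and from 105053 to 132633 at day 11, against 51494 to 61739 in control at day 11. At day 0 Adipoq, Plin1, Lep, Cfd and Retn had at most 3 reads in every control library. In knockdown libraries Adipoq, Plin1, Cidec, Lep, Cfd and Retn, 6 of the 8, had at most 3 reads at day 0. The day 0 sums thus came almost wholly from the few remaining markers, while Cidec passed 3 reads in control only. The 6 preadipocyte or fibroblast markers were already lower in knockdown libraries at day 0, summing to 297867 to 309892 with shRNA 1 and 337965 to 341556 with shRNA 2 against 362306 to 377966 in control. At day 3 the hairpins lay on opposite sides of control (141042 to 158678), at 135485 to 140162 with shRNA 1 and 169803 to 177112 with shRNA 2. The sums were 254727 to 279393 in control and 200089 to 231638 in knockdown libraries at day 7. At day 11 they were 302321 to 347366 in control, 231455 to 272960 with shRNA 1, below control, and 312904 to 320646 with shRNA 2, within its range. Macrophage markers (3 of 4 in the table) summed to at most 81 reads in control and 150 in knockdown libraries at day 7, and to 166 to 278 and 265 to 619 at day 11. Endothelial markers (3 of 3) summed to at most 47 and muscle markers (2 of 4 in the table) to at most 7 in any library. Ptprc, the defining leukocyte gene, had at most 3 reads in every library. In bulk RNA, a change in the number of fat-like cells and a change in RNA per cell cannot be told apart.

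The sequences before the start sites of 3 members are shown, chosen with their values known, because at day 7 of the knockdown comparison Bcat1 was lower while Bcat2 and Bckdhb were higher. They are the 250 bases upstream of the RefSeq start (GRCm38.p6), written 5′ to 3′ on the gene's strand, with capitals marking matches on either strand to 6 motifs, none of which overlap each other here. The motifs were CCAAT (the CCAAT box), GGGCGG (the GC box), AGGTCA (a nuclear receptor half-site), CACGTG (an E-box), TTGCNNAA (a C/EBP-type core) and TTGCATCA (an ATF4-type element). The windows are chr6:145076158-145076407 (minus strand) for Bcat1, chr7:45569903-45570152 (plus strand) for Bcat2 and chr9:83924887-83925136 (plus strand) for Bckdhb.
Bcat1: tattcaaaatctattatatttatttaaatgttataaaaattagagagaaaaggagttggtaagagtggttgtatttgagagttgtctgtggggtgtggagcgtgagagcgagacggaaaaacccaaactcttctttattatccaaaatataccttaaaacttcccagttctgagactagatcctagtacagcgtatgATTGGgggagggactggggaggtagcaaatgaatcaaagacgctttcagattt
Bcat2: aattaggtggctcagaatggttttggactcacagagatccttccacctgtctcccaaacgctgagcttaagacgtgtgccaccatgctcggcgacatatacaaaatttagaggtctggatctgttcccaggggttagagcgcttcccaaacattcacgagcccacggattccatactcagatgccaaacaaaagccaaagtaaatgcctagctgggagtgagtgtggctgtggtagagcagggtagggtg
Bckdhb: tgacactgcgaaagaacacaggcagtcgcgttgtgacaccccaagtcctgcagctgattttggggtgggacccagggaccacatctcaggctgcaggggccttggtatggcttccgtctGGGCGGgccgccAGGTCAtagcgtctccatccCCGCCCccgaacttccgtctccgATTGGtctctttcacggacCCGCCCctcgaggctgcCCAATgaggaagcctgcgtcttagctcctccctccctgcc

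RefSeq gives each of these 3 genes a second start, and the window printed is that of the start farthest upstream. The Bcat1 window held a single CCAAT match, 53 bases before the start. The Bcat2 window held none of the 6 motifs. The Bckdhb window held 1 AGGTCA match (119 bases before the start), 2 CCAAT matches and 3 GGGCGG matches. The second window held 1 AGGTCA match for Bcat1 and 0 matches for Bcat2 and for Bckdhb, with a GC content of 56.4%, 50.4% and 36.4%. In the printed windows GC content was 37.6% in the Bcat1 window, 50.4% in the Bcat2 window and 63.2% in the Bckdhb window, beside a median of 52.4% over all 32851 windows of this length. RefSeq windows were found for 9 of the 10 genes (13 windows, since some genes have more than 1 start; Dbt is named only). AGGTCA occurred in 3 of the 13 and in 14.0% of all windows, CCAAT in 6 of the 13 and in 33.8% of all, and GGGCGG in 3 of the 13 and in 32.7% of all. TTGCNNAA occurred in 1 of the 13 (9.56% of all), and CACGTG (6.02% of all) and TTGCATCA (0.791% of all) in 0 of the 13. A match here is a description of letters, not of a bound site.

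During differentiation of control cells, the transaminases peaked on different days. Bcat1, the cytosolic enzyme, peaked at day 3 and was lowest at day 7, whereas Bcat2, the mitochondrial enzyme, peaked at day 7. Bcat1 (chromosome 6, 144993835 to 145076184, GRCm38) had 1422, 1507, 1448 and 1633 normalized reads in the 4 control libraries at day 0. At day 3 it had 3689, 3757, 3604 and 3354, at day 7 1246, 1092, 1360 and 1442, and at day 11 1826, 1938, 2241 and 1968. The day 3 libraries were all above the others and the day 7 range just met that of day 0. The rise at day 3 was 2.32-fold (log2 1.21, SE 0.0704, adjusted p = 1.66e-12). The level at day 7 was below that at day 0 by a small margin (log2 -0.22, SE 0.0704, adjusted p = 0.009).

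Bcat2 (chromosome 7, 45570153 to 45589711) had 875, 903, 912 and 974 normalized reads in control libraries at day 0 and 1853, 1662, 1816 and 1805 at day 3. It reached 4303, 3946, 4107 and 4168 at day 7 and returned to 1415, 1375, 1345 and 1228 at day 11. No 2 days overlapped. The day 7 level was 4.25-fold that of day 0 (log2 2.09, SE 0.0462, adjusted p = 6.05e-29), and this was the largest change of any of the 10 genes in control cells.

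Among the other genes in control cells, subunits of 1 enzyme moved in opposite directions at day 3. Pcca (chromosome 14), which encodes the biotin-bearing subunit of propionyl-CoA carboxylase, rose 1.89-fold (log2 0.92, SE 0.0568, adjusted p = 2.05e-16) while its partner Pccb (chromosome 9) fell by 0.47 on the log2 scale (SE 0.0546, adjusted p = 2.2e-09). The ratio of Pcca to Pccb reads per kilobase of exon was 0.366 to 0.426 in control libraries at day 0, 0.996 to 1.21 at day 3 and 0.39 to 0.433 at day 7. The day 3 libraries thus stood apart from both neighbouring days. Bckdhb, the beta subunit of the decarboxylase, rose by 0.78 (SE 0.0499, adjusted p = 4.83e-16) at day 3 while Bckdha, the alpha subunit, differed by -0.01 (SE 0.0422, adjusted p = 0.862). The Bckdha to Bckdhb ratio per kilobase was 1.96 to 2.26 at day 0 and 1.13 to 1.27 at day 3 in control cells.

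In all, 6 of the 10 genes rose and 2 fell in control cells at day 3, beside 38.3% of all genes called higher and 38.2% called lower. One of the 6, Bckdk (adjusted p = 0.0477), was called or not depending on single libraries: it was not called without shCtrl day 0 replicate 1 or 3, any of the 4 shCtrl day 3 libraries, shCtrl day 7 replicate 4, or shCtrl day 11 replicate 2 or 3 (adjusted p 0.0507 to 0.193), nor with no filter on low values (0.0666) or the replicate block (0.0556). At day 7, 9 rose and 1 fell (33.3% and 35.8% of all genes), and at day 11, 4 were above day 0 and 1 below (33.0% and 31.6%). The 1 below, Pccb, was not called without shCtrl day 11 replicate 1 (-0.13, adjusted p = 0.0611). The median difference of the 10 genes was 0.24, 0.61 and 0.03 at days 3, 7 and 11, beside 0, -0.01 and 0.01 for all genes. Bckdk, the inhibitory kinase, had the smallest difference of the 10 at day 7. Its log2 difference was 0.10 on day 3, then 0.16 on day 7 and -0.03 on day 11, with SE 0.0442 each time. When libraries were rescaled to equal totals, the median of all genes at day 3 moved to -0.12 and 38.6% instead of 50.1% of calls were higher. Bckdk was then -0.03 at day 3 (adjusted p = 0.557) and its day 7 difference 0.09 (adjusted p = 0.0863), and neither was called. Bckdha at day 3 was -0.14 on that scaling and called lower (adjusted p = 0.00397).

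**Figure D1:**
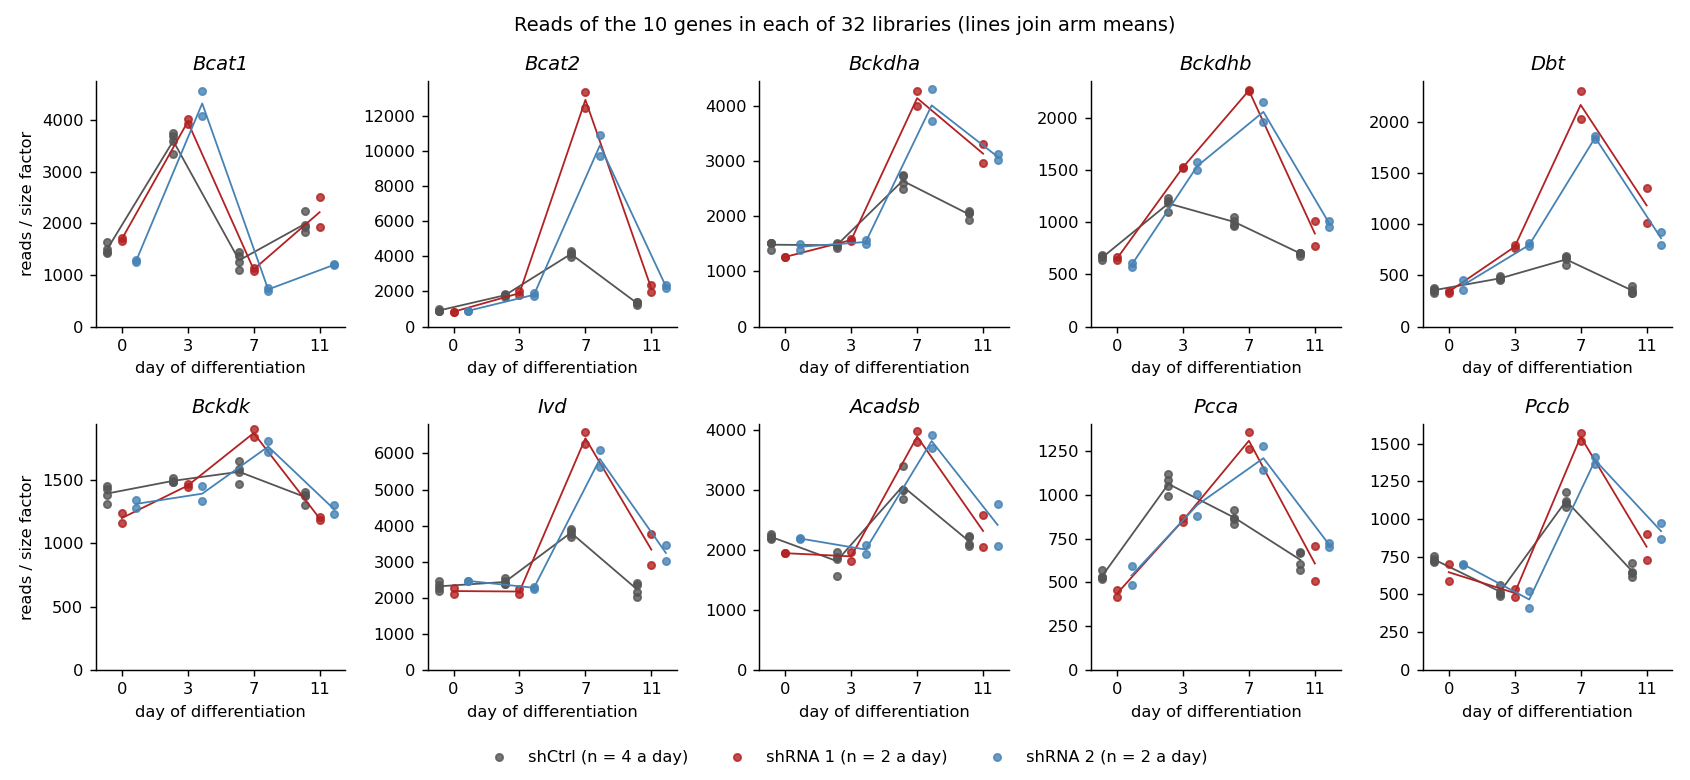
Normalized reads (reads divided by size factor, linear axis from 0) of each of the 10 genes against day of differentiation (days evenly spaced, arms offset). Each point is a library (grey, shCtrl; red, shRNA 1; blue, shRNA 2) and lines join arm means; Bcat2 at day 7 reaches 9718 to 13348 in knockdown libraries, above the 3946 to 4303 of control.

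Per kilobase of exon, Bckdha was the most abundant of the 10 transcripts in control cells on each day (781 ± 33.1 normalized reads per kilobase at day 0 and 1390 ± 61.6 at day 7, SD, n = 4). Ivd was next at day 0 (420 ± 21.0), followed by Bckdk (377 ± 17.3) and Bckdhb (368 ± 11.3), whose ranges overlapped. Dbt (106 ± 5.84) and Pcca (103 ± 4.3) were lowest and overlapped each other. At day 7 Bcat2 stood in the second place with 1059 ± 38.0, apart from Bckdha above and from Ivd (691 ± 18.5) below, and Bcat1 was last with 138 ± 16.3. Levels of Bckdha carry a limit: 61.7% of its exon bases overlap those of B3gnt8 on the opposite strand, and use of strand in counting is not given in the sources used here. B3gnt8 had 57 to 280 normalized reads, against at least 1259 for Bckdha. Smaller overlaps on the opposite strand were those of Ggact with Pcca (4.63% of exon bases, 136 to 333 normalized reads) and 0610005C13Rik with Bcat2 (15.9%, 0 to 12). Exons of Gm26666, which was not among the deposited genes, overlap 3.62% of those of Bcat1.

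Before differentiation, none of the 10 genes was called between knockdown and control when both hairpins formed 1 group (0 higher and 0 lower in limma, beside 0.817% and 2.44% of all genes). Unadjusted p fell under 0.05 for 1 of the 10, Bckdk, and voom on rebuilt reads also called 0. With each hairpin kept as a group of its own and the 2 effects averaged, 3 genes (Bckdha, Bckdk and Acadsb) were called lower and 0 higher, beside 14.3% and 11.0% of all genes. Alone against control, shRNA 1 gave 1 gene higher (Bcat1) and 5 lower (Bckdha, Bckdk, Acadsb, Pcca and Pccb), beside 15.8% and 18.9% of all genes. The Pccb call (log2 -0.17, adjusted p = 0.0496) was lost without 7 of the 8 libraries in turn, and the difference was -0.05 without shRNA 1 replicate 1 (adjusted p = 0.706). Without that library Bcat1 (adjusted p = 0.133) and Bckdk (adjusted p = 0.0874) also lost their calls, and Pcca lost its call without shRNA 1 replicate 2 (adjusted p = 0.104). With shRNA 2, 0 were higher and 1 (Bcat1) lower, beside 7.38% and 10.2%, and that call was lost without shRNA 2 replicate 1 (adjusted p = 0.075). With both hairpins in 1 group the differences ran from -0.15 for Pcca to 0.05 for Dbt, with a median of -0.10 beside -0.01 for all genes. Of the calls over all genes at day 0, 25.1% were higher, or 43.3% after rescaling to equal totals.

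At day 3, Dbt and Bckdhb were already higher in knockdown cells. Dbt (chromosome 3, 116513070 to 116549981), the core on which the decarboxylase is assembled, had 457, 494, 463 and 470 normalized reads in control libraries. It had 764 and 794 with shRNA 1 and 782 and 811 with shRNA 2. The groups did not overlap, and the difference was 1.62-fold (log2 0.69, SE 0.0584, adjusted p = 2.35e-06). Bckdhb (chromosome 9, 83925145 to 84124240) had 1096 to 1235 in control and 1503 to 1579 in knockdown libraries, again with no overlap (1.28-fold; log2 0.36, SE 0.0507, adjusted p = 0.000161). The summed fat cell markers differed between the same libraries without overlap, and their part in these differences was not tested. Bckdha, the third core subunit gene, differed by 0.07 (SE 0.0459, adjusted p = 0.281).

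Also at day 3 Bcat1 was 1.15-fold higher (log2 0.20, adjusted p = 0.013), and Pcca (log2 -0.23, adjusted p = 0.0153) and Ivd (log2 -0.13, adjusted p = 0.0478) were lower. The 3 higher and 2 lower members stand beside 14.6% and 12.1% of all genes. Without shCtrl day 3 replicate 4, only Dbt and Bckdhb of these 5 remained called, with adjusted p = 0.0564 for Bcat1, 0.0578 for Pcca and 0.108 for Ivd. The Ivd call was also lost without any of 6 other libraries of that day (adjusted p 0.061 to 0.131).

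Day 7 had the most calls between the arms. Of the 10 genes, 9 were higher in knockdown cells and 1, Bcat1, was lower, beside 24.9% and 22.6% of all genes. The median of the 10 was 0.55 beside 0.01 for all genes tested. For each of the 9 higher genes, all 4 knockdown libraries lay above all 4 control libraries, as they did for 23.3% of all genes tested. The summed fat cell markers rose between the same libraries, and their part in this result was not tested.

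Bcat2 had 13348 and 12455 normalized reads with shRNA 1 and 9718 and 10908 with shRNA 2 at day 7, against the 3946 to 4303 of control. That is 11607 ± 1614 against 4131 ± 148 (SD, n = 4 each), a 2.70-fold difference (log2 1.43, SE 0.079, adjusted p = 7.68e-09). Bcat1 moved the other way. It had 1076 and 1142 with shRNA 1 and 757 and 684 with shRNA 2, against 1092 to 1442 in control, so the shRNA 1 libraries met the control range and the shRNA 2 libraries lay below it. The Bcat1 difference was -0.49 (SE 0.166, adjusted p = 0.0384), and it lost its call without shRNA 2 replicate 1 or 2 or without shCtrl replicate 1, 3 or 4 of that day (adjusted p 0.0565 to 0.0889).

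Bcat2 was set against Bcat1 within each library. The ratio of Bcat2 to Bcat1 reads per kilobase was 1.43 to 1.51 in control libraries at day 0 and 6.91 to 8.64 at day 7. In knockdown libraries it was 1.17 to 1.68 at day 0 and 26.1 to 38.1 at day 7. At day 11 it was 1.43 to 1.85 in control, 1.85 to 2.96 with shRNA 1 and 4.45 to 4.68 with shRNA 2. These ratios were not tested.

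All 3 genes of the decarboxylase subunits rose at day 7. Dbt had 2298 and 2029 normalized reads with shRNA 1 and 1857 and 1832 with shRNA 2 at day 7, against 686, 659, 598 and 679 in control. It showed the largest difference of the 10 genes (2.87-fold; log2 1.52, SE 0.0727, adjusted p = 5.01e-10). Bckdhb had 2259 and 2270 with shRNA 1 and 1964 and 2155 with shRNA 2 against 966 to 1054 (2.07-fold; log2 1.05, SE 0.0587, adjusted p = 1.87e-09). Bckdha had 4271 and 4000 with shRNA 1 and 3716 and 4294 with shRNA 2 against 2488 to 2743 (1.52-fold; log2 0.60, SE 0.0563, adjusted p = 4.43e-07). Bckdha per Dbt, on reads per kilobase, was 6.65 to 8.02 in control and 3.28 to 4.13 in knockdown libraries at day 7.

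The kinase and the phosphatase of the complex were also higher at day 7. Bckdk (chromosome 7, 127904082 to 127910221) had 1465 to 1648 normalized reads in control and 1721 to 1903 in knockdown libraries at day 7 (1.15-fold; log2 0.21, SE 0.0545, adjusted p = 0.00551). Ppm1k, the phosphatase that reactivates the complex, had 270 to 392 in control and 460 to 544 in knockdown libraries (log2 0.63, SE 0.104, adjusted p = 0.000133). The ratio of Bckdk to Dbt per kilobase was 2.08 to 2.22 in control and 0.724 to 0.893 in knockdown libraries at day 7. It was 3.18 to 3.79 and 0.81 to 1.48 at day 11. The Bckdk to Ppm1k ratio was 6.86 to 9.42 in control and 5.42 to 6.39 in knockdown libraries at day 7, and 7.57 to 9.47 and 4.69 to 5.63 at day 11. In both ratios the arms did not overlap on either of those days. The Bckdk to Dbt ratio was already apart at day 0 (3.34 to 3.99 in control and 2.65 to 3.28 in knockdown libraries). It was also apart at day 3 (2.74 to 3.01 and 1.54 to 1.74). The Bckdk to Ppm1k ratio overlapped between the arms at days 0 and 3.

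**Figure D2:**
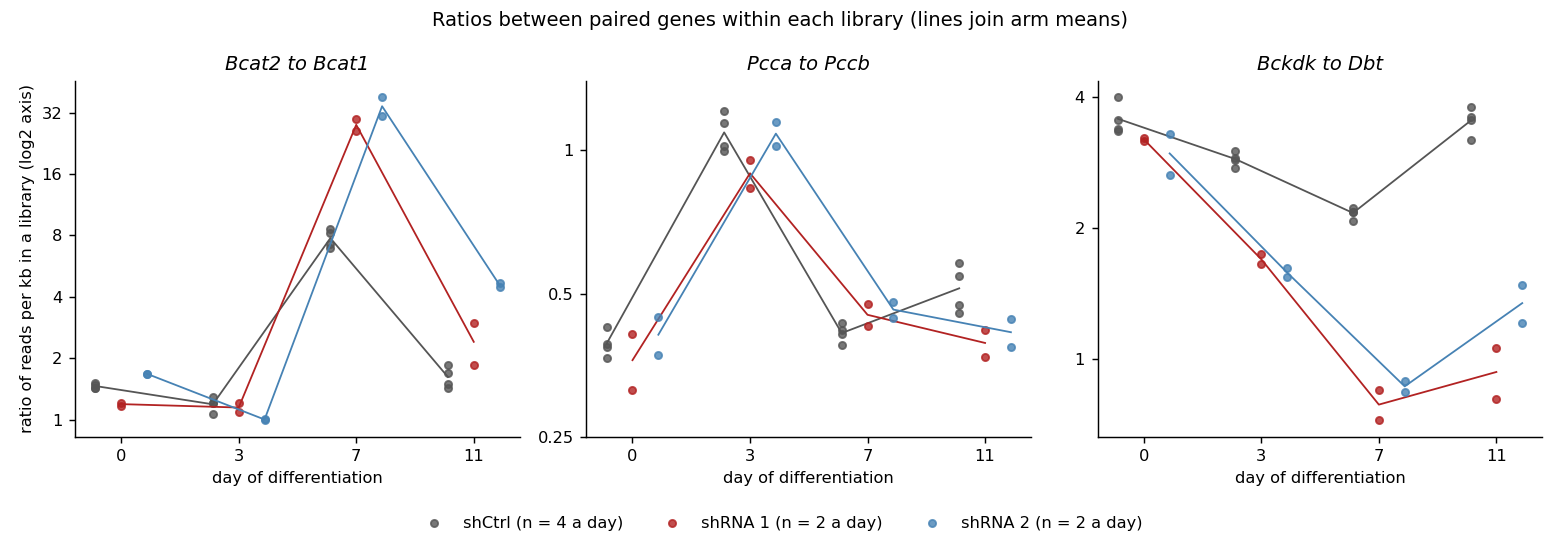
Ratios of reads per kilobase between paired genes within each library (log2 axis) against day of differentiation (days evenly spaced, arms offset); each point is a library and lines join arm means. At day 7 Bcat2 to Bcat1 is 26.1 to 38.1 in knockdown against 6.91 to 8.64 in control libraries, Bckdk to Dbt is lower in every knockdown library, and Pcca to Pccb is highest at day 3 in all arms.

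The 4 genes of the later steps were higher at day 7 by 0.32 to 0.66 on the log2 scale. Ivd (chromosome 2), which oxidises isovaleryl-CoA from leucine, had 3675 to 3903 normalized reads in control and 5614 to 6583 in knockdown libraries (1.58-fold; log2 0.66, SE 0.0533, adjusted p = 8.7e-08). Acadsb (chromosome 7), which acts on the isoleucine arm, had 2857 to 3402 and 3709 to 3978 (log2 0.32, SE 0.0562, adjusted p = 0.000218). Pcca had 831 to 912 and 1141 to 1356 (log2 0.50, SE 0.0623, adjusted p = 7.95e-06), and Pccb had 1077 to 1177 and 1365 to 1570 (log2 0.37, SE 0.059, adjusted p = 0.000104). All 4 genes kept their arms apart.

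At day 11, 6 genes were higher and 0 lower, beside 16.8% and 16.2% of all genes, with a median of 0.38 for the 10 and -0.01 for all genes. Dbt differed most, with 1351 and 1015 normalized reads for shRNA 1 and 798 and 926 for shRNA 2, against 361, 328, 392 and 329 in control (2.66-fold; log2 1.41, SE 0.132, adjusted p = 2.57e-05). Bcat2 was 1.62-fold higher (log2 0.70, SE 0.0715, adjusted p = 2.69e-05), with 1940 to 2384 in knockdown against 1228 to 1415 in control libraries. Bckdha (log2 0.58), Ivd (0.53), Bckdhb (0.39) and Pccb (0.38) were the others called. Bcat1 (log2 -0.28, adjusted p = 0.411), Bckdk (-0.14, adjusted p = 0.0589), Acadsb (0.12, adjusted p = 0.334) and Pcca (0.06, adjusted p = 0.715) were not. With hairpins as separate groups, Bcat1 (adjusted p = 0.0096) and Bckdk (adjusted p = 0.0243) were called lower as well. A single fit over the 32 libraries also called Bcat1 (adjusted p = 0.0024) and Bckdk (adjusted p = 0.0063) lower.

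The same 6 genes were called without the library labelled shRNA 1 day 11 replicate 2. Dbt was then 1.41, Bcat2 0.76, Bckdha 0.60, Ivd 0.59, Bckdhb 0.48 and Pccb 0.45 on the log2 scale. That library had the lowest knockdown level of 8 of the 10 genes and the highest of Bcat1 (Dbt was the exception), among them the lowest of Pcca (505 normalized reads, against 704 to 723 in the other 3) and of Bckdhb (777 against 958 to 1017). Pcca differed by 0.17 without it (adjusted p = 0.0843). Bcat1 differed by -0.48 without it (adjusted p = 0.0629), Acadsb by 0.18 (adjusted p = 0.11) and Bckdk by -0.12 (adjusted p = 0.113).

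The knockdown difference itself changed over time. Relative to day 0, it was larger at day 3 for 2 genes and smaller for 0 (3.69% and 2.88% of all genes). The 2 were Dbt (log2 0.64, SE 0.14, adjusted p = 0.00391) and Bckdhb (0.45, SE 0.0879, adjusted p = 0.00117). At day 7 it was larger for 9 genes and smaller for 0 (16.8% and 13.2%), led by Bcat2 (1.5, SE 0.0992, adjusted p = 2.69e-13) and Dbt (1.47, SE 0.14, adjusted p = 9.64e-10). At day 11 it was larger for 6 and smaller for 0 (12.4% and 10.8%), the same 6 as in the comparison within that day. Without the library labelled shRNA 1 day 11 replicate 2, Acadsb (0.28, adjusted p = 0.0395) and Pcca (0.32, adjusted p = 0.0307) joined them. For Bcat1 the change from day 0 to day 7 was -0.47 (SE 0.241, adjusted p = 0.152), and it was called smaller in 1 fit of all 32 libraries (adjusted p = 0.000617). That fit also called Bckdha larger at day 3 (0.20, adjusted p = 0.0204), as did leaving out shRNA 2 day 0 replicate 1 (0.25, adjusted p = 0.0347). Without shRNA 2 day 11 replicate 2, Acadsb was called larger at day 11 (0.28, adjusted p = 0.0489). Over all genes, the share of larger among called differences went, after rescaling to equal totals, from 56.2% to 42.4% at day 3, from 56% to 40.7% at day 7 and from 53.6% to 40.1% at day 11. It changed no member's call in these 3 comparisons.

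Each hairpin was also set against control alone, with the same 4 control libraries a day in both comparisons. Over the 4 days, shRNA 1 gave 28 calls of 40 against control and shRNA 2 gave 21 of 40, beside 42.5% and 33.0% over all genes. Without the library labelled shRNA 1 day 11 replicate 2 the shRNA 1 sum was 27, the lost call being that of Bckdk at day 11 (log2 -0.17, adjusted p = 0.11). The hairpins themselves differed in 9 of 40, beside 23.2% over all genes. At day 0 the hairpins differed for Bcat1, Pcca, Bckdha, Ivd and Acadsb. Of these, only the Bcat1 call held without each library in turn. Pcca was 0.28, and 0.15 without shRNA 2 replicate 1 (adjusted p = 0.324). Bckdha and Ivd each lost the call without any of 3 libraries, and Acadsb without 1, shRNA 2 replicate 2 (adjusted p = 0.0625). For Bckdha these were both shRNA 1 libraries and shRNA 2 replicate 1, and for Ivd both shRNA 2 libraries and shRNA 1 replicate 1. At day 7 shRNA 1 gave 9 genes higher and Bcat1 lower (beside 27.7% and 24.3% of all genes), and so did shRNA 2 (beside 24.0% and 22.0%). The Bcat1 call was near the threshold with shRNA 1 (log2 -0.20, adjusted p = 0.0481). It was lost without shRNA 1 replicate 1 or 2 or shCtrl replicate 1, 3 or 4 of that day, and the adjusted p over its alternatives ran from 0.00387 to 0.473. With shRNA 2 the Bcat1 difference was -0.79 (adjusted p = 2.54e-08). The Bckdk call with shRNA 2 (0.17, adjusted p = 0.0216) was lost without shRNA 2 replicate 2 (0.13, adjusted p = 0.182) or shCtrl replicate 3 (0.14, adjusted p = 0.0601) of that day.

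For Bcat1, shRNA 2 lay below shRNA 1 at day 0 (log2 -0.39, SE 0.0603, adjusted p = 8.26e-06), day 7 (-0.59, SE 0.0945, adjusted p = 0.000119) and day 11 (-0.84, SE 0.109, adjusted p = 0.000199). At day 3 it differed by 0.12 (SE 0.0554, adjusted p = 0.143). In normalized reads at day 11, shRNA 1 libraries had 1924 and 2512, shRNA 2 libraries 1210 and 1187 and control libraries 1826 to 2241. Against control, Bcat1 was lower with shRNA 2 (-0.70, adjusted p = 8.34e-05) and not called with shRNA 1 (0.14, adjusted p = 0.26). The shRNA 1 value rested on single libraries: it was 0.32 without its replicate 1 (adjusted p = 0.00601) and -0.05 without its replicate 2, the library with control-level Zbtb9 reads (adjusted p = 0.74). Between the hairpins the day 11 difference was -1.02 without shRNA 1 replicate 1 and -0.65 without replicate 2 (adjusted p = 0.000201). At day 0 the hairpins stood on opposite sides of control, with 1719 and 1669 for shRNA 1, 1262 and 1301 for shRNA 2 and 1422 to 1633 for control.

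Bcat2 was higher with shRNA 1 than with shRNA 2 at day 7 (the difference of shRNA 2 from shRNA 1 was -0.31, SE 0.0617, adjusted p = 0.000735), as was Dbt at day 11 (-0.42, SE 0.122, adjusted p = 0.0212). The Dbt difference was -0.23 without shRNA 1 replicate 1 of day 11 (adjusted p = 0.216), -0.32 without shRNA 2 replicate 1 (adjusted p = 0.165) and -0.62 without shRNA 1 replicate 2 (adjusted p = 0.00338). The fat cell markers summed to 181369 to 186429 with shRNA 1 and 116710 to 141404 with shRNA 2 at day 7, and their part in the Bcat2 difference was not tested.

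**Figure D3:**
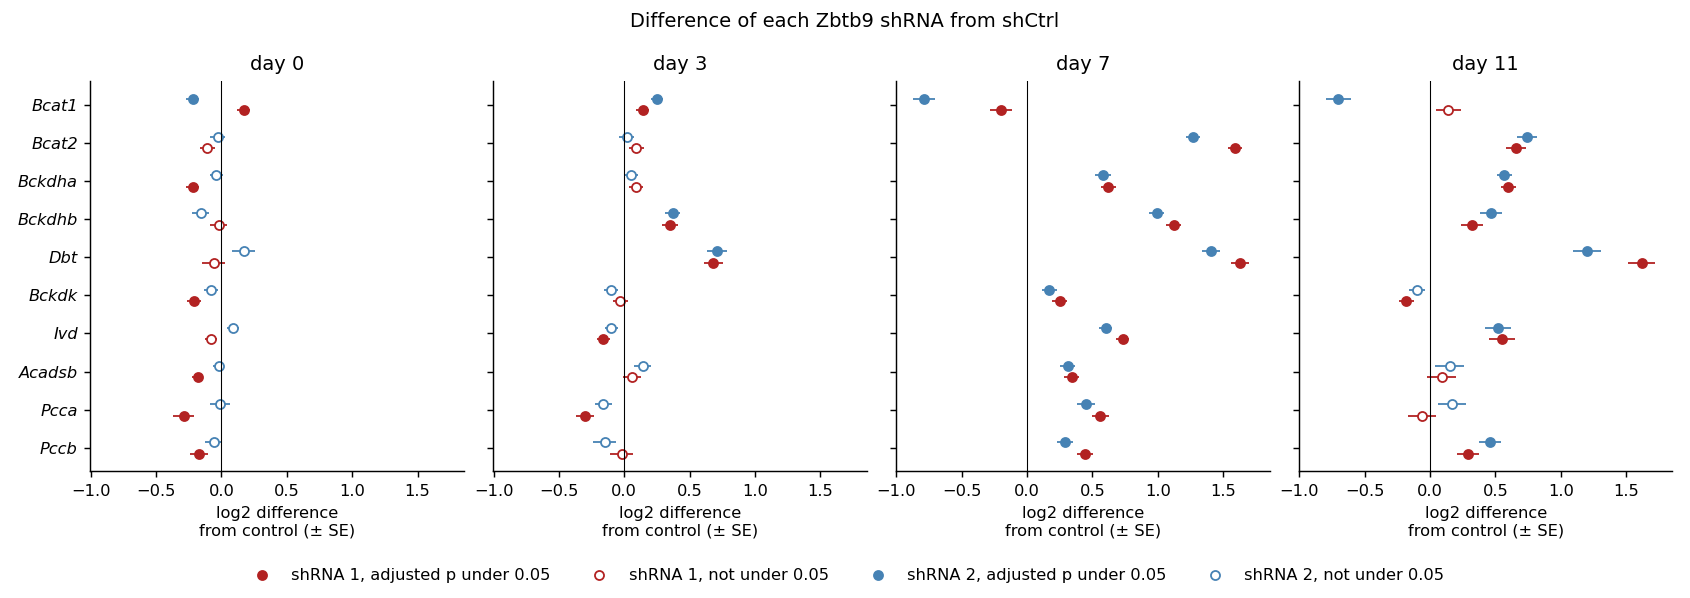
Log2 difference of each hairpin from shCtrl (± SE from limma) for the 10 genes on each day, on a shared axis; filled points have an adjusted p under 0.05. At day 7 every gene but Bcat1 lies right of 0 with both hairpins, and Bcat1 parts between the hairpins at days 0, 7 and 11.

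Other steps of the pathway were examined in the same comparison. Of 19 tested genes of the lower steps, 18 were higher and 0 lower at day 7 (median 0.48), 6 and 0 at day 3 and 12 and 0 at day 11. Of all genes, 24.9% were higher and 22.6% lower at day 7, 14.6% and 12.1% at day 3, and 16.8% and 16.2% at day 11. Hibch (log2 1.19, SE 0.0822), a valine enzyme, Aldh6a1 (1.00, SE 0.063), which yields propionyl-CoA from valine, and Echs1 (0.89, SE 0.0573), an enoyl-CoA hydratase, differed most at day 7. Dld, the dehydrogenase subunit that the complex shares with its sisters, was higher at day 3 (0.45, SE 0.0447), day 7 (0.87, SE 0.0729) and day 11 (0.43, SE 0.0604). Slc25a44, the mitochondrial carrier of branched-chain amino acids, was called higher at day 7 (0.28, SE 0.0721, adjusted p = 0.00425) and not at days 0, 3 and 11 with both hairpins together. With shRNA 2 it had 1289 to 1354 normalized reads at day 0 and 1273 to 1420 at day 3, above all control libraries (1047 to 1144 and 1026 to 1130), while with shRNA 1 it overlapped them (1028 to 1128 and 1035 to 1162). Of 4 tested leucine carriers of the plasma membrane, 3 were higher at day 7, namely Slc7a5 (1.29), Slc43a1 (1.18) and the heavy chain Slc3a2 (0.21).

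Lists outside the pathway were set beside the same 24.9% of all genes higher and 22.6% lower at day 7. At day 7 all 14 citrate cycle genes were higher (median 0.56, Idh3a 1.45, Sdhb 0.77, Mdh2 0.70), as were all 12 genes of mitochondrial import and structure (median 0.50, Hspd1 0.84, Timm50 0.78, Timm23 0.64). Of 13 genes of the sister keto acid dehydrogenases with their kinases and phosphatases, 11 were higher and 2 lower (median 0.46), with Pdhb at 1.06, Pdhx at 0.83 and the phosphatase gene Pdp1 at -0.96. Of 6 transcription factors tied to the pathway or to fat cells, 4 were higher and 1, Ppargc1a, was lower. Klf15, a factor known for controlling amino acid breakdown, rose by 2.05, Cebpa by 1.99 and Pparg by 1.17. The fat cell markers themselves had a median of 1.93, with 7 of 7 tested higher.

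**Figure D4:**
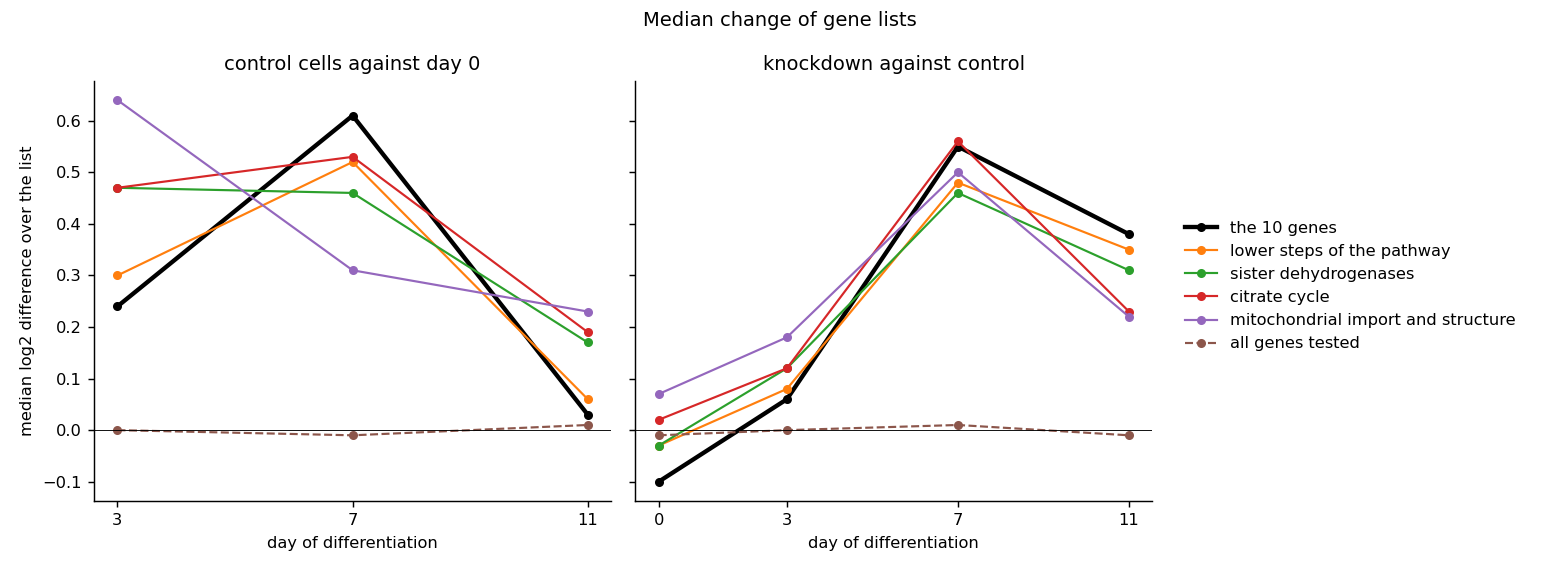
Median log2 difference of 5 gene lists and of all genes tested, in control cells against day 0 (left) and in knockdown against control (right), by day. At day 7 of the knockdown comparison the 10 genes (0.55) lie among the lower steps (0.48), the citrate cycle (0.56), mitochondrial import (0.50) and the sister dehydrogenases (0.46).

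Across all 32 libraries, the genes whose deposited values followed Bcat1 most closely among 12095 were Prmt3 (Pearson r 0.979), Pwp2 (0.977) and Tars (0.973). For Bcat2 they were Gpr157 (0.975), Tufm (0.975) and Krt36 (0.974). These are descriptions: the 32 points share days, arms and control libraries.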

How the data were processed

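Reads were aligned and counted per gene with TopHat2 2.1.0, Bowtie2 2.2.6, SAMtools 1.3.1 and HTSeq 0.6.1, per the submitters' processing notes; the genome build and the use of strand are not given in the sources used here. The authors deposited log2 values for 20560 genes (28 without a symbol), from -1.56 to 17.99, whose form is that of regularized log counts, as read from the values. Reads were rebuilt by inverting that form: 99.3% of values came out within 0.1 of a whole number (20% by chance), 312 of 320 for the 10 genes, whose lowest value was 326 reads. Counting error is thus small beside the large differences, but its share in the small differences of the genes with fewest reads was not worked out. Positions and exon lengths are from GRCm38 (GENCODE M21), matched by 20532 gene IDs.

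Differences were tested on the deposited values with limma 3.58.1 (R 4.3.3; trend and robust), with Benjamini-Hochberg adjustment over all genes tested. Genes needed 2 to the power of the value of at least 10 in at least 4 libraries of the fit. Scripts were tested on simulated data. Members and lists were chosen with earlier results of these data known. Named genes are all members, Zbtb9, Dld, Ppm1k, Slc25a44 and the 3 called genes of each list that differed most at day 7. The 3 genes most correlated with Bcat1 and with Bcat2 are named too. Cell type markers at or near 0, genes whose exons overlap a member, and Ggnbp1, which overlaps Zbtb9, are also named. Ppargc1a was named after its values were seen. Alternatives were other filters (none, or 50), rescaling, plain moderation, rebuilt reads plus 1, voom, a replicate block, hairpins as separate groups, 1 fit of all libraries, and leaving out each library.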

Additional observations from a re-analysis of the deposited data

Results flagged for a closer look

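In 5 of 80 groups of 4 libraries, 1 library stood apart from the other 3 by Dixon's criterion. Chance meets it in about 1 in 20 groups drawn from 1 population. Knockdown groups pool 2 libraries of each hairpin, so that rate need not hold for them, and the 10 genes share the same libraries. All values are deposited log2 values. Bckdha was 10.46 in shCtrl day 0 replicate 4, with 10.58 in each of the others. Bckdhb was 9.44 in shCtrl day 11 replicate 4 against 9.49 to 9.5. Bckdk was 10.39 in shRNA 2 day 3 replicate 1 against 10.5 to 10.52. Pcca was 9.02 in shRNA 1 day 11 replicate 2 against 9.47 to 9.5. Pccb was 9.23 in shRNA 1 day 0 replicate 1 against 9.45 to 9.47.

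The knockdown difference changed from that at day 0 in 17 tests of an interaction. Of all genes, 3.69% were called larger and 2.88% smaller at day 3, 16.8% and 13.2% at day 7, and 12.4% and 10.8% at day 11. At day 3 the change was 0.45 for Bckdhb and 0.64 for Dbt on the log2 scale. At day 7 it was 1.5 for Bcat2, 0.73 for Bckdha, 1.15 for Bckdhb, 1.47 for Dbt, 0.35 for Bckdk, 0.66 for Ivd, 0.42 for Acadsb, 0.65 for Pcca and 0.48 for Pccb. At day 11 it was 0.77 for Bcat2, 0.71 for Bckdha, 0.48 for Bckdhb, 1.36 for Dbt, 0.53 for Ivd and 0.49 for Pccb.

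Over the 10 genes on 4 days, the hairpins differed from each other in 9 tests, beside 23.2% of tests over all genes. At day 0, the calls other than that of Bcat1 were each lost without at least 1 library. As shRNA 2 minus shRNA 1, the difference at day 0 was -0.39 for Bcat1, 0.19 for Bckdha, 0.17 for Ivd, 0.16 for Acadsb and 0.28 for Pcca. At day 7 it was -0.59 for Bcat1 and -0.31 for Bcat2, and at day 11 -0.84 for Bcat1 and -0.42 for Dbt.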

How the results depend on the processing

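Of 4520 values of the 10 genes under an alternative, 4372 kept their side of the threshold (in 71 the sign changed with no call in either fit), 108 lost a call, 39 gained one and 1 called value lost its call with a change of sign, Bckdk in control cells at day 3 (-0.03 after rescaling, adjusted p = 0.557). The count of members called between knockdown and control at day 3 was 5, and ran from 2 to 5 when 1 library was left out. At day 0 it was 0, and 3 with hairpins as separate groups or 2 in 1 fit of all 32 libraries. Calls between hairpins summed to 9, and to 5 with plain moderation. The cause was not tested.

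Same-numbered libraries correlated weakly, by -0.09 to 0.12 over days in control and -0.01 to 0.21 between arms of a day. Of 24 pairs each, 1 and 3 were over 0.1. With 2 libraries per hairpin, the replicate 1 and replicate 2 values between hairpins are identical by construction, so the pairs are not independent. All 3 pairs between arms over 0.1 were at day 11, and whether replicate numbers pair libraries on that day was not settled. With the replicate number as a block, 2 members were called at day 3, 8 at day 7 and 4 at day 11. Hairpin groups had only replicates 1 and 2, so within a day this block fully fitted shCtrl replicates 3 and 4. The difference then rested on shCtrl replicates 1 and 2, and lost calls cannot be told apart from the loss of those control libraries. It ended the day 3 calls of Bcat1, Ivd and Pcca (adjusted p 0.219 to 0.253), the day 7 calls of Bcat1 (0.248) and Bckdk (0.128), and the day 11 calls of Bckdhb (0.0667) and Pccb (0.0998). Over all genes it gave 0 calls at day 0 (430 without it), 845 at day 3 (3506), 4112 at day 7 (6328) and 1652 at day 11 (4382). Over all genes, day 0 gave 261 calls with plain moderation, 3340 with separate hairpins, 2409 in 1 fit and as few as 111 without 1 library. Day 3 gave 5311 with separate hairpins and day 11 6792 in 1 fit. Changes from day 0 gave 2484 in 1 fit against 892 at day 3, and 4865 against 3145 at day 11.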
